A study of Mus musculus with 4 samples.

Results

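The genes described here are those of the constitutive proteasome, the protease complex that every cell uses to degrade proteins. They are the rows of the gene table whose symbol is Psma to Psmg followed by a number, without the immunoproteasome subunits Psmb8, Psmb9 and Psmb10, and with at least 1 read in any of the 4 libraries. The rule gave 45 genes of 24527 rows, of which 19894 had a read. Of these 45 genes, 43 had a mean of at least 1 CPM (reads on the gene per 1e06 reads of the library, after scaling with TMM factors) and entered the comparisons. The exceptions were Psma8, a testis subunit with 37 reads in all, and Psmb11, a thymus subunit with 15 reads in all.

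The proteasome degrades proteins that carry a chain of ubiquitin. Its core particle is a barrel of alpha rings, which gate the entry, and beta rings, of which Psmb5, Psmb6 and Psmb7 carry the chymotrypsin-like, caspase-like and trypsin-like active sites. The regulatory particle caps the core: its base holds the ATPases Psmc1 to Psmc6, which unfold the substrate, and its lid removes the ubiquitin. Activators encoded by Psme genes can take the place of this cap, Psmf1 encodes an inhibitor, and dedicated chaperones assemble core and base. Within each particle the subunits are present in equal numbers, and many of their genes are activated together by the transcription factor Nfe2l1 when proteasome activity is short. Melanoma cells depend on this protease as other dividing cells do.

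RNA was sequenced from B16F10 cells, a mouse melanoma line of C57BL/6 origin, in 4 conditions that the labels all give as wild type (WT). The flat cultures are called co-culture and monoculture from here on, and 2D co-culture and 2D monoculture in the plots. In the spheroid condition the cells grew in hanging drops together with NIH/3T3 mouse fibroblasts, in the co-culture they grew flat with the same fibroblasts, and in the monoculture they grew flat and alone. By the study's methods, a B16F10 line with a green fluorescent protein was used and its living cells were sorted from these cultures by their fluorescence. The tumor condition came from B16F10 cells injected under the skin of both flanks of female C57BL/6 mice aged 1 year. For that library the methods name sorted cells, whereas its label names snap-frozen tumor, and whether it holds 1 animal or a pool is not given in the sources used here. The methods speak of several samples at the RNA extraction, and whether a library is 1 of them or a pool is likewise not given. Each condition is 1 library, so no comparison has replicates behind it and none is given a p-value. The intervals printed are at the 95% level and reflect counting error alone. The question asked here is how the levels of the proteasome genes, and of core against regulatory subunits, compared among spheroid, flat cultures and tumor.

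The libraries held between 118896900 and 150028663 reads on genes, and the upper limit for a gene without reads, 3 reads, stood between 0.0185 and 0.0262 CPM. The 7 melanocyte markers, Tyr and Pmel among them, were all above 1 CPM in every library. In the tumor library markers of other cells were present as well: 8 myeloid genes summed to 1839 CPM there against 9.96 to 29.9 CPM in the cultures, 8 fibroblast genes to 2718 CPM against 17.6 to 679 CPM, and 5 skeletal muscle genes to 4209 CPM against 0.905 to 7.35 CPM. All 8 fibroblast genes were higher in the co-culture (sum 679 CPM) than in the monoculture (sum 17.6 CPM). Col1a2 alone gave 514 of the 679 CPM, and Lum, with 10 against 7 reads, had too few reads to order these libraries. In the spheroid, whose fibroblast sum was 36.5 CPM, 5 of the 8 were higher than in the monoculture. The part of these cells in the values below was not tested. In bulk RNA, fewer cells of a type and less RNA per cell cannot be told apart.

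The promoters of 4 subunit genes are shown first, because promoter sequence is a feature that the choice of the genes did not use. A RefSeq promoter (GRCm38.p6, 250 bases before the start) was found for 37 of the 45 genes, 11 of the 14 core genes and 14 of the 17 regulatory genes among them. Both strands were searched. The first motif, TGACNNNGC, is the core of the antioxidant response element, to which Nfe2l1 and Nfe2l2 bind. It was held by 5 of 37 member promoters (13.5%), against 14.1% of the promoters of genes averaging at least 1 CPM and 11.5% of all 27025 genes in the promoter table. The members were Psmb5, Psmb6, Psmc6, Psmd12 and Psmd9. The same motif preceded by G was held by 4 of 37 members (10.8%), against 5.50% and 3.98%, and was searched only after the data were seen. In the following stretches, which end before the first annotated start and are written 5′ to 3′ on the strand of the gene, the capitals mark TGACNNNGC in the genes of 2 active beta subunits. Psmb5 lies on the minus strand at chr14:54618023-54618172 and Psmb6 on the plus strand at chr11:70525207-70525356.
Psmb5: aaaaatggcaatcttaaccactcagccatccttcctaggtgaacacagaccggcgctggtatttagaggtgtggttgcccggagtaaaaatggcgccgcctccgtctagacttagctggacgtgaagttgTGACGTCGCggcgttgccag
Psmb6: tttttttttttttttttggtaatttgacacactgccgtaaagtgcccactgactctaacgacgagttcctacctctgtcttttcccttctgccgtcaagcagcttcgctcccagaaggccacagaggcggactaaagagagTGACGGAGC

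The second motif, CCGGAAG, is a core to which Ets family factors bind, and was chosen after the data were seen. It was held by 8 of 14 regulatory promoters (57.1%) and by 1 of 11 core promoters (9.09%, Psma6). Among genes averaging at least 1 CPM the share was 15.7%, and over every gene with a promoter entry 7.83%. The regulatory genes that held it were Psmc1, Psmc2, Psmc6, Psmd2, Psmd4, Psmd6, Psmd11 and Psmd12. The 2 shown are those of the 8 that were over 2-fold lower in the spheroid than in the monoculture, and in both the site reads CTTCCGG because it lies on the opposite strand. Of the 8, Psmd11 was higher in the spheroid (198 against 153 CPM), and the others were lower within 2-fold. Psmd1, the regulatory gene with the lowest ratio, had a promoter entry without the motif, and Psmc3 had no entry. Whether the motif goes with the levels was not tested. Psmd2 lies at chr16:20651502-20651651 and Psmc2 at chr5:21785125-21785274, both on the plus strand, and the capitals mark the site.
Psmd2: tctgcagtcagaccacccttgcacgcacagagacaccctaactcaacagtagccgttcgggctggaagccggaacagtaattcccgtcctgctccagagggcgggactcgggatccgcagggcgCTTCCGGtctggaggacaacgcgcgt
Psmc2: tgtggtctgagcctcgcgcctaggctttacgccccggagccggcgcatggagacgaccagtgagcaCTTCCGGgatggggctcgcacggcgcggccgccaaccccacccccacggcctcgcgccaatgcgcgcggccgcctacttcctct

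The CCAAT box was held by 6 of 11 core promoters and 4 of 14 regulatory promoters, and by 35.1% of all member promoters against 40.5% of genes averaging at least 1 CPM. TGANTCA, the core to which AP-1 binds, was held by 2.70% of members against 5.45%. The GC box, a promoter motif of G and C bases, was held by 21.6% of members against 23.0%, with 27.3% of core and 14.3% of regulatory promoters. Both were likewise chosen after the data were seen. With CCGGAAG and the G-preceded TGACNNNGC, these were all the motifs added at that stage. A match is a run of letters and not a measured binding site.

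The 45 genes together took a like share of the reads in each library: 0.987% in the spheroid, 0.925% in the co-culture, 0.978% in the monoculture and 0.906% in the tumor. The balance between the particles differed. On the scale of CPM per kilobase of transcript, the 14 core genes summed to 4618 in the spheroid, 3575 in the co-culture, 2892 in the monoculture and 2952 in the tumor. The 17 regulatory genes summed to 2900, 2729, 3313 and 2165 in the same order. Core transcripts thus had the highest sum in the spheroid, and regulatory transcripts had it in the monoculture.

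The ratio of the regulatory to the core sum needs no scaling between libraries. It was 0.628 (0.626 to 0.630) in the spheroid, 0.734 (0.731 to 0.736) in the tumor, 0.763 (0.760 to 0.766) in the co-culture and 1.15 (1.14 to 1.15) in the monoculture. The monoculture was the only library of the 4 in which the regulatory sum per kilobase exceeded the core sum, and with medians in place of sums its ratio was 0.962, so that no library was then above 1. Without division by length the 4 ratios were 0.953, 1.14, 1.18 and 1.84 in the same order of libraries, so the order stayed while only the spheroid was then below 1.

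**Figure D1:**
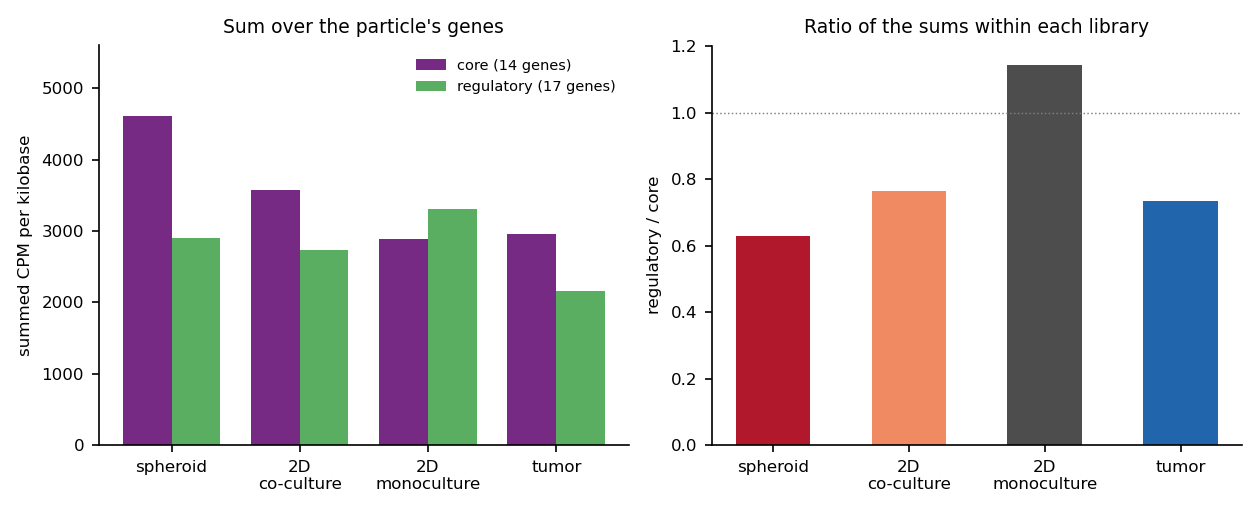
The left panel plots summed CPM per kilobase of the 14 core and the 17 regulatory genes in each library, and the right panel plots the ratio of the regulatory to the core sum, with a dotted line at 1. The ratio lies at 0.628 in the spheroid and at 1.15 in the monoculture, with the tumor (0.734) and the co-culture (0.763) between them.

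By ring and subcomplex, the core difference was larger in the beta ring than in the alpha ring. The 7 beta genes summed to 3188 CPM per kilobase in the spheroid, 2317 in the co-culture, 1817 in the monoculture and 1752 in the tumor. The 7 alpha genes summed to 1430, 1258, 1075 and 1200 in that order. In the regulatory particle, the ATPase sum was 971 in the spheroid and 1366 in the monoculture, and the sum of the base subunits that are no ATPases was 337 and 666. The lid sum went the other way, with 1592 in the spheroid against 1280 in the monoculture. A single gene, Psmd8, gave 881 of those 1592 and 486 of those 1280, so the direction of the lid sum rests on it. Of the 8 lid genes, 5 were lower in the spheroid than in the monoculture.

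Levels within a particle were far from equal, although its subunits are assembled in equal numbers. In the monoculture the highest core gene per kilobase, Psmb4, stood 12.7-fold above the lowest, Psma3, and the highest regulatory gene, Psmd8, stood 9.03-fold above the lowest, Psmd11. In the spheroid the core range was 12.7-fold as well, but the regulatory range, from Psmd1 to Psmd8, was 45.8-fold. It was 12.02-fold in the co-culture and 9.53-fold in the tumor.

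**Figure D2:**
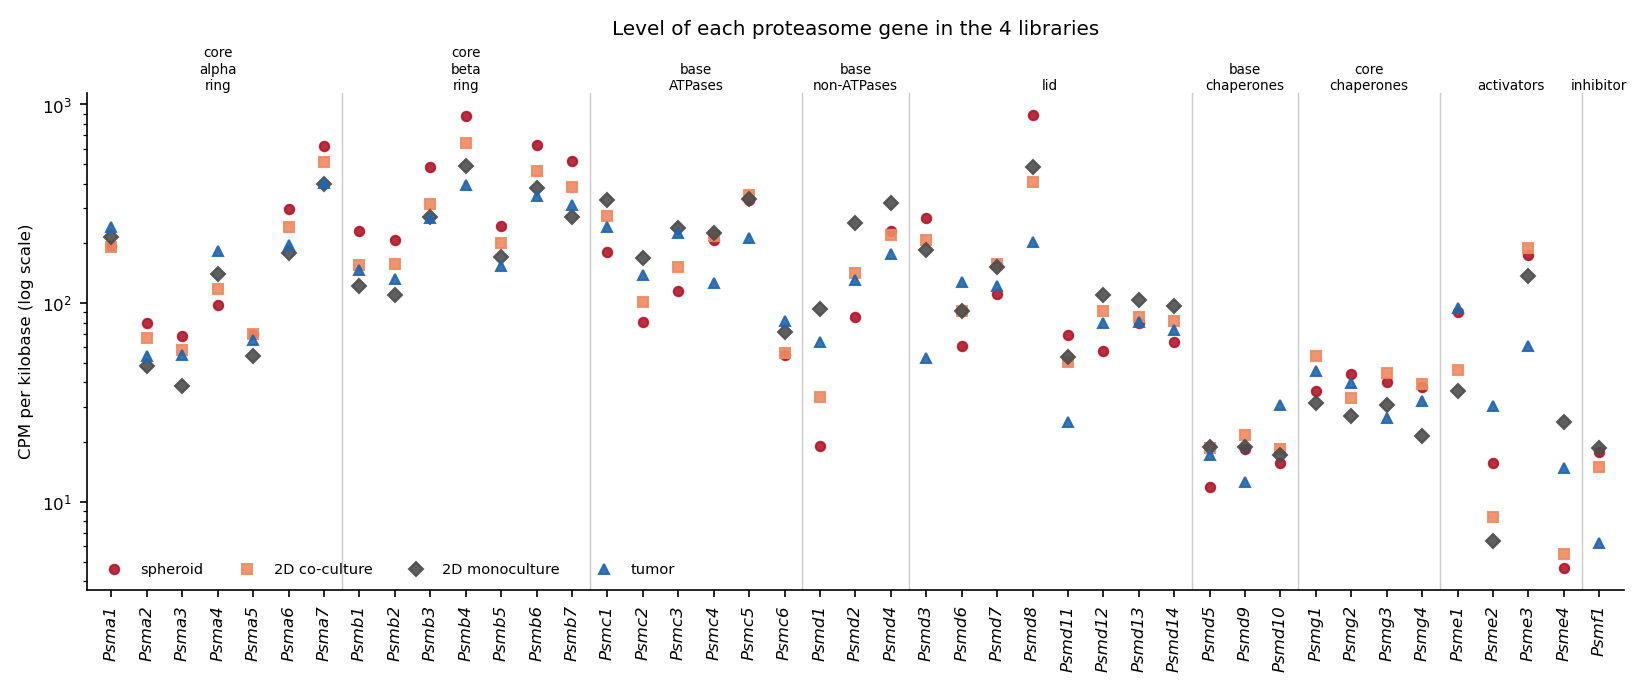
The vertical axis gives CPM per kilobase on a log scale for the 43 genes averaging at least 1 CPM, grouped by role, with 1 symbol per library. The beta ring stands with the spheroid on top for each of its 7 genes, whereas Psmd1, Psmd2 and Psme4 stand with the monoculture on top.

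The comparisons of libraries used log2 ratios of CPM. For single genes nothing was added, and for lists and for calls 1 CPM was added to each value. A gene was called when it differed by more than 2-fold. Of the 43 genes, 7 were past 2-fold between spheroid and monoculture, against 29.1% of the 12728 genes averaging at least 1 CPM. Psme1 and Psme2 were higher (11.2% of all genes were), and Psmc2, Psmc3, Psmd1, Psmd2 and Psme4 were lower (17.9% of all genes were). Between co-culture and monoculture 2 were past 2-fold, against 13.3% of all genes: none was higher (background 3.79%), and Psmd1 and Psme4 were lower (background 9.51%). Between tumor and monoculture 7 were past 2-fold, against 33.1% of all genes, with Psme1 and Psme2 higher (background 14.8%) and Psmd3, Psmd8, Psmd11, Psme3 and Psmf1 lower (background 18.2%). These 3 comparisons share the monoculture library.

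Between spheroid and co-culture only Psmd8 was past 2-fold, against 18.0% of all genes. It was higher, as were 9.54% of all genes, and no member was lower (background 8.46%). Between spheroid and tumor 9 were past 2-fold, against 54.4% of all genes. Psmb4, Psmd3, Psmd8, Psmd11, Psme3 and Psmf1 were higher in the spheroid (background 26.8%), and Psmd1, Psmd6 and Psme4 were lower (background 27.6%). In each of the 5 comparisons the share of members past 2-fold was thus below that of all genes. The calls higher and lower between spheroid and tumor were 6 and 3 with TMM factors, 5 and 8 with total counts, which moved every log2 ratio by -0.36, and 6 and 7 with upper quartile factors. Between tumor and monoculture they were 2 and 5 with TMM factors, 3 and 3 with total counts and 3 and 2 with upper quartile factors. There Psmd11 and Psme3 were within 2-fold with both of these, and Psmd8 with upper quartile factors. Between spheroid and monoculture upper quartile factors gave 5 and 3 in place of 2 and 5, and the 3 genes gained were the core genes Psmb1, Psmb2 and Psmb7.

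**Figure D3:**
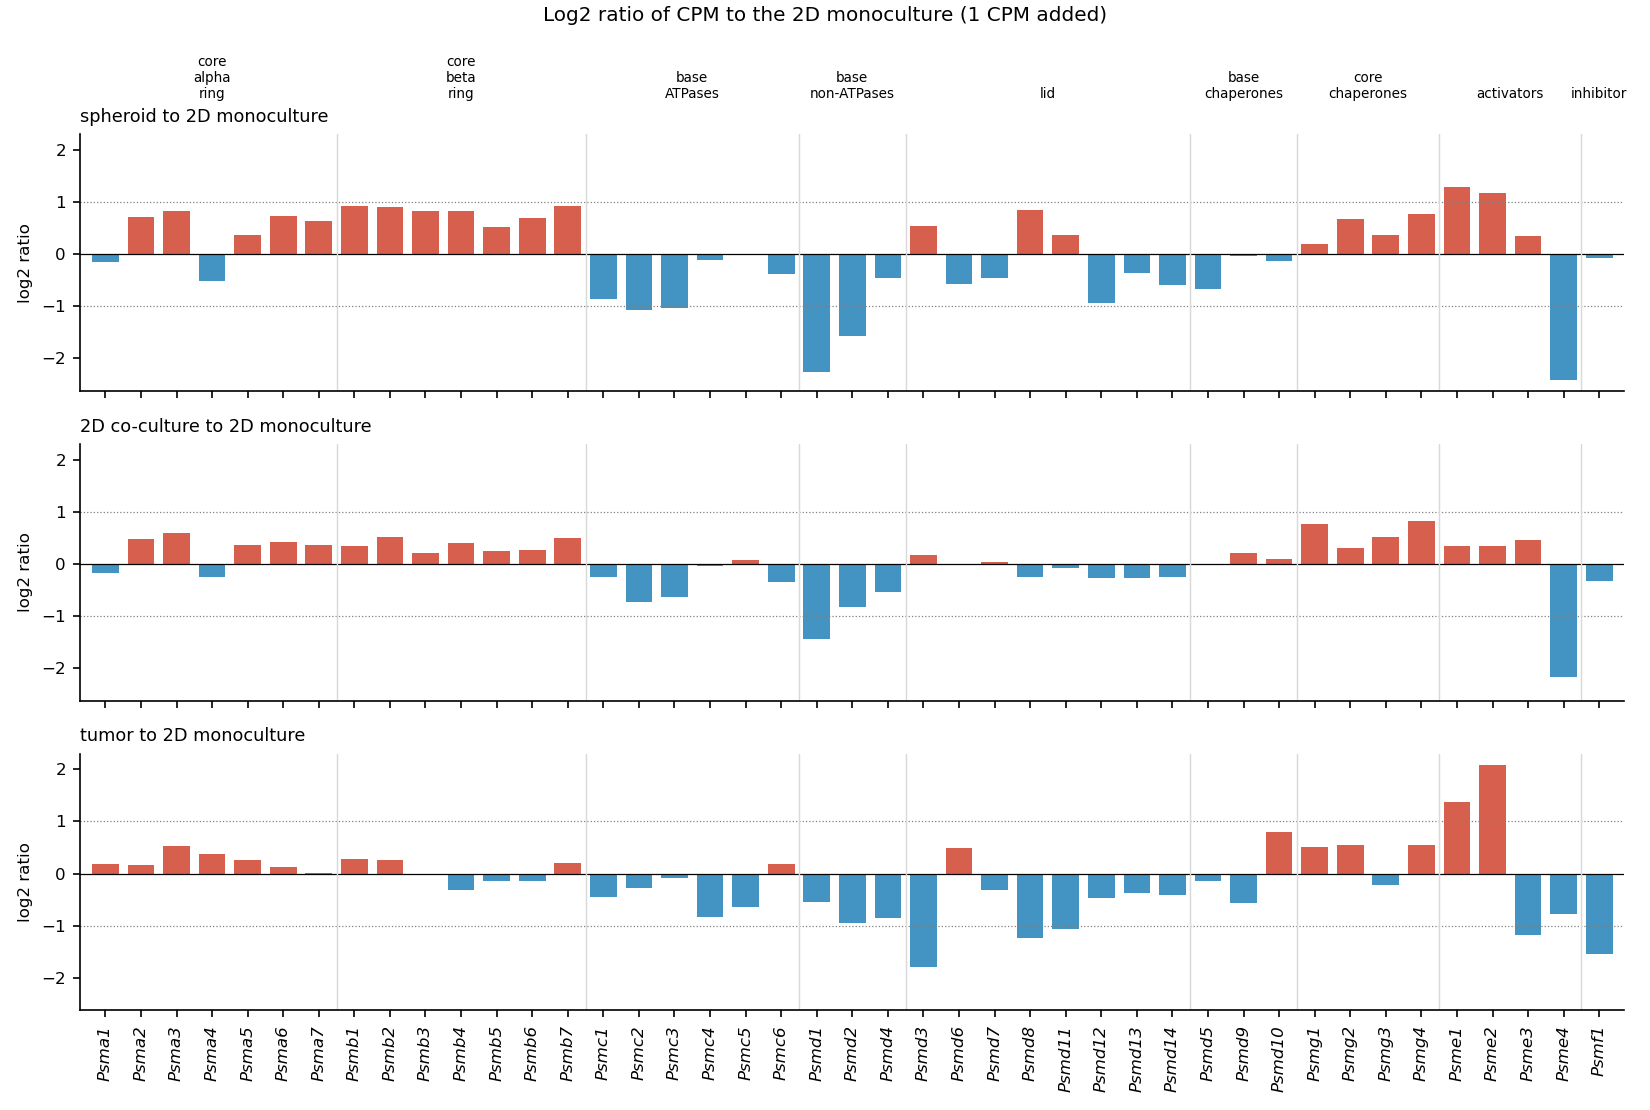
Each panel gives the log2 ratio to the monoculture (1 CPM added) of the 43 genes by role, for the spheroid, the co-culture and the tumor, with dotted lines at 2-fold. The bars of the beta ring point up in the upper 2 panels and those of the base ATPases point mostly down, while in the tumor panel Psme1 and Psme2 point up and Psmd3, Psme3 and Psmf1 point down past the line.

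Core genes differed mostly in 1 direction and, with TMM factors, by less than 2-fold from the monoculture. Their median log2 ratio between spheroid and monoculture was 0.72, with 12 of 14 genes above 0, against 0.05 for all genes, of which 53.7% lay above 0. The interquartile range was 0.29 for the core genes and 1.27 for all genes. With TMM factors no core gene was past 2-fold in any of the 3 comparisons with the monoculture. The closest was Psmb7 in the spheroid, at 0.93. Psmb1, Psmb2 and Psmb7 passed the limit there with upper quartile factors, and Psma3 (1.36) and Psmb1 (1.03) did so after the correction for GC content and length described below. With TMM factors the only core gene past 2-fold in the other 2 comparisons was Psmb4 between spheroid and tumor.

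All 7 beta genes were higher in the spheroid than in the monoculture, by log2 ratios of 0.52 to 0.93 with a median of 0.84. After the same correction 6 of the 7 were higher and the median was 0.34, and Psmb5 changed side (-0.10) while Psmb6 came to 0.11. Psmb4, a structural beta subunit and the most abundant core transcript per kilobase in each of the 3 culture libraries, measured 578 CPM in the monoculture, 761 in the co-culture, 1032 in the spheroid and 465 in the tumor. The spheroid stood highest and the tumor lowest, and the spheroid-to-tumor log2 ratio was 1.15 (95% interval 1.14 to 1.16). With total counts in place of TMM factors that ratio was 0.79, within 2-fold.

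The genes of the active sites followed the same order among the cultures. Psmb5, the chymotrypsin-like subunit, had CPM values of 153 in the monoculture, 182 in the co-culture, 220.0 in the spheroid and 139 in the tumor. Psmb6, the caspase-like subunit, measured 304 CPM in the monoculture, 367 in the co-culture, 496 in the spheroid and 276 in the tumor. Psmb7, the trypsin-like subunit, had CPM values of 316 in the monoculture, 444 in the co-culture, 604 in the spheroid and 362 in the tumor. In all 3 the spheroid was highest and the co-culture second, and the tumor was above the monoculture for Psmb7 and below it for Psmb5 and Psmb6. The spheroid-to-monoculture log2 ratio was 0.52 (95% interval 0.50 to 0.55) for Psmb5, 0.71 (95% interval 0.69 to 0.72) for Psmb6 and 0.93 (95% interval 0.92 to 0.95) for Psmb7. The exons of Psmb7 share 405 bases with Nek6 on the opposite strand, and the strand setting of the counting is not given in the sources used here, so reads of these genes cannot be told apart there. Psmb5 shares 109 bases with Mir686, for which every library held 0 reads.

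The remaining beta genes Psmb1, Psmb2 and Psmb3 had spheroid-to-monoculture log2 ratios of 0.92, 0.92 and 0.84. In the co-culture all 7 beta genes were above the monoculture as well, by 0.21 to 0.51, but after the correction 4 of 7 were, without Psmb3, Psmb5 and Psmb6. In the tumor 3 of 7 were above it and 4 below, between -0.31 and 0.27.

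In the alpha ring, 5 of 7 genes were higher in the spheroid than in the monoculture and Psma1 and Psma4 were lower. Psma4 measured 164 CPM in the monoculture, 137 in the co-culture, 114 in the spheroid and 214 in the tumor, the reverse of the order of the beta genes among the cultures. Its exons share 114 bases with AY074887 on the opposite strand, which had at most 0.358 CPM in any library. Psma1 had CPM values of 257 in the monoculture, 229 in the co-culture, 233 in the spheroid and 291 in the tumor. Psma3 showed the largest alpha difference in the other direction, with CPM values of 109 in the monoculture, 165 in the co-culture, 196 in the spheroid and 157 in the tumor and a spheroid-to-monoculture log2 ratio of 0.84 (95% interval 0.81 to 0.87). Psma7, the most abundant alpha transcript per kilobase in all 4 libraries, had CPM values of 365 in the monoculture, 468 in the co-culture, 567 in the spheroid and 369 in the tumor. For Psma2, Psma5 and Psma6 the spheroid-to-monoculture log2 ratios were 0.72, 0.38 and 0.73. Of these, Psma5 changed side after the correction (-0.09). In the tumor all 7 alpha genes were above the monoculture, by 0.02 to 0.52, but after the correction only Psma3 was.

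The tissue-specific core genes were at or near 0. Psma8, which replaces an alpha subunit in the testis, had 0 reads in each culture library and 37 reads in the tumor library (0.23 CPM). Psma8 met the rule only through its tumor reads, so its highest value in the tumor follows from the rule. With 3 reads in place of each 0, the tumor value was 10.3-fold that of the spheroid, 8.70-fold that of the co-culture and 10.8-fold that of the monoculture. These folds leave out the counting error of the 37 reads and are no lower bounds. Psmb11, the subunit of the thymus epithelium, had between 2 and 7 reads per library, too few to order the libraries.

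The regulatory particle differed from the core in direction and in spread. Its median spheroid-to-monoculture log2 ratio was -0.46, with 14 of 17 genes below 0 and an interquartile range of 0.82. Of all genes, 53.7% lay above 0 there. The difference of the regulatory from the core median was -1.18 between spheroid and monoculture, -0.62 between co-culture and monoculture, -0.64 between tumor and monoculture, -0.62 between spheroid and co-culture and -0.83 between spheroid and tumor. The regulatory median lay below the core median in all 5 comparisons, which share libraries among them. Between co-culture and monoculture the medians were 0.36 (12 of 14 core genes above 0) and -0.26 (14 of 17 regulatory genes below 0). The median of all genes was 0.01, and 50.8% of them lay above 0. Between tumor and monoculture the core and regulatory medians were 0.18 (10 of 14 above 0) and -0.46 (15 of 17 below 0). The median of all genes was -0.14, and 44.6% of them lay above 0. Between spheroid and co-culture the core and regulatory medians were 0.29 and -0.33, and between spheroid and tumor 0.63 and -0.19, against -0.01 and 0.08 for all genes. The sign of the regulatory value in these last comparisons depends on how the genes are summarised, since the log2 ratio of the summed CPM was 0.05 between spheroid and co-culture and 0.36 between spheroid and tumor. Upper quartile factors moved every log2 ratio of spheroid and of co-culture to monoculture by 0.12, and total counts moved those of tumor to monoculture by 0.24, so members at most that far below 0 change side with the scaling.

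The base ATPases, the ring of motors that unfolds the substrate, were all lower in the spheroid than in the monoculture, with a median of -0.62, although Psmc5, at -0.01, changes side with DESeq2 size factors. Psmc2 measured 300.4 CPM in the monoculture, 181 in the co-culture, 143 in the spheroid and 246 in the tumor. Psmc3 had CPM values of 390.0 in the monoculture, 249.8 in the co-culture, 189.6 in the spheroid and 369 in the tumor. Both had their lowest value in the spheroid and their highest in the monoculture, and both were just past 2-fold, with spheroid-to-monoculture log2 ratios of -1.07 (95% interval -1.09 to -1.04) and -1.04 (95% interval -1.06 to -1.02). With upper quartile factors they were within 2-fold (-0.94 and -0.92), and Psmc3 was so with DESeq2 size factors too. Just inside the limit in that comparison, with 1 CPM added, were Psmd12 at -0.93, Psmb7 at 0.93, Psmb1 at 0.92 and Psmb2 at 0.92.

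The other 4 ATPases did not share that size. Psmc1 measured 524 CPM in the monoculture, 439 in the co-culture, 288 in the spheroid and 385 in the tumor, in the same order of the cultures. Psmc5, an ATPase with nearly level values in culture, had CPM values of 439 in the monoculture, 463 in the co-culture, 436 in the spheroid and 280.4 in the tumor. Psmc4 was likewise level among the cultures, between 298 CPM and 324 CPM, and lower in the tumor with 182 CPM. Psmc6 went the other way in the tumor, with 182 CPM against 123 CPM in the spheroid. The 6 genes of the ring thus did not keep 1 ratio to each other across the libraries.

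Between spheroid and monoculture, the largest differences among the core and regulatory subunits were those of the base scaffolds Psmd1 and Psmd2, which hold the ubiquitin receptors. Psmd1 measured 289.8 CPM in the monoculture, 106 in the co-culture, 59.8 in the spheroid and 199 in the tumor. The spheroid was lowest, the monoculture highest, and the log2 ratio was -2.28 (95% interval -2.31 to -2.24) between spheroid and monoculture and -1.46 (95% interval -1.49 to -1.43) between co-culture and monoculture. Between spheroid and tumor it was -1.73 (95% interval -1.77 to -1.70). Psmd2, whose promoter is shown above, had CPM values of 773 in the monoculture, 436 in the co-culture, 261 in the spheroid and 399 in the tumor. Its spheroid-to-monoculture log2 ratio was -1.57 (95% interval -1.59 to -1.55), and those of the co-culture (-0.83) and of the tumor (-0.95) to the monoculture had the same sign within 2-fold. Psmd4, which encodes a ubiquitin receptor of the base, measured 429 CPM in the monoculture, 296 in the co-culture, 312 in the spheroid and 237 in the tumor, again with the monoculture highest.

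In the lid, Psmd8, Psmd3 and Psmd11 were higher in the spheroid than in the monoculture and the other 5 genes were lower, but Psmd3 changed side (-0.12) after the correction. Psmd8 had CPM values of 734 in the monoculture, 617 in the co-culture, 1331 in the spheroid and 309 in the tumor. It was the only member past 2-fold between spheroid and co-culture, with a log2 ratio of 1.11 (95% interval 1.10 to 1.12), and between spheroid and tumor the ratio was 2.11 (95% interval 2.09 to 2.12). Psmd3 measured 398 CPM in the monoculture, 446 in the co-culture, 576 in the spheroid and 114 in the tumor, with a spheroid-to-tumor ratio of 2.34 (95% interval 2.32 to 2.36), the largest among the 43 genes before the correction. After it the ratio was 0.87, below those of Psmf1, Psmd11, Psmd8 and Psme3 among others. Psmd11, a lid subunit that clamps the particle to the core, had CPM values of 153 in the monoculture, 144 in the co-culture, 198 in the spheroid and 72.3 in the tumor. All 3 had their highest value in the spheroid and their lowest in the tumor.

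Psmd14, the deubiquitinase of the lid, measured 149.8 CPM in the monoculture, 126 in the co-culture, 98.8 in the spheroid and 113 in the tumor. Psmd12 had CPM values of 210.3 in the monoculture, 175 in the co-culture, 109.7 in the spheroid and 152 in the tumor, and Psmd7 measured 242 CPM in the monoculture, 249 in the co-culture, 175 in the spheroid and 194 in the tumor. Psmd6 had its highest value in the tumor, with 178 CPM there, 84.9 CPM in the spheroid cells and a spheroid-to-tumor log2 ratio of -1.07 (95% interval -1.10 to -1.04). Psmd13 was the most even of the lid genes, from 159 CPM (spheroid) to 206 CPM (monoculture), and its exons share 152 bases with Sirt3 on the opposite strand.

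In the monoculture the 7 assembly chaperones lay between 17.3 and 31.6 CPM per kilobase, below the lowest subunit, Psma3, at 38.4. This held in no other library. Psmg1 stood at 36.2 in the spheroid and 54.4 in the co-culture, above Psmd1 at 19.2 and 34.0. In the tumor it stood at 45.5, above Psmd11 at 25.4. The core chaperones Psmg1 to Psmg4, which pair up to build the alpha ring, were all higher in the spheroid and in the co-culture than in the monoculture, with medians of 0.52 and 0.64, and 3 of 4 were higher in the tumor. After the correction the spheroid median was -0.02, with Psmg1 (-0.31) and Psmg3 (-0.23) on the other side, and the co-culture median was 0.29, with Psmg2 (-0.06) on the other side. In the tumor 2 of 4 were then higher. Psmg4 had CPM values of 11.9 in the monoculture, 21.7 in the co-culture, 21.05 in the spheroid and 17.9 in the tumor, and Psmg1 measured 32.9 CPM in the monoculture, 56.8 in the co-culture, 37.8 in the spheroid and 47.5 in the tumor. The monoculture was lowest for both. The spheroid-to-monoculture log2 ratio was 0.70 for Psmg2 and 0.38 for Psmg3. The base chaperones Psmd5, Psmd9 and Psmd10 were all below the monoculture in the spheroid, with log2 ratios of -0.68, -0.03 and -0.14, of which that of Psmd9 changes sign with upper quartile factors and that of Psmd5 with the correction (0.16). Psmd10, also known as gankyrin, had CPM values of 25.4 in the monoculture, 27.3 in the co-culture, 23.1 in the spheroid and 45.2 in the tumor, highest in the tumor.

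The 4 activator genes did not move together. Psme1 and Psme2 encode the subunits of PA28 alpha-beta, an interferon-induced cap that opens the core without ATP, and are neighbours at chr14:55578123-55581529 and chr14:55587441-55591113 (mm10). Psme1 measured 40.5 CPM in the monoculture, 51.5 in the co-culture, 101 in the spheroid and 106 in the tumor. Psme2 had CPM values of 6.25 in the monoculture, 8.19 in the co-culture, 15.4 in the spheroid and 29.6 in the tumor. For both, the tumor was highest, the spheroid second and the monoculture lowest. The spheroid-to-monoculture log2 ratio was 1.32 (95% interval 1.27 to 1.36) for Psme1 and 1.30 (95% interval 1.18 to 1.41) for Psme2, and that of tumor to monoculture was 1.39 (95% interval 1.34 to 1.43) and 2.24 (95% interval 2.14 to 2.35). After the correction for GC content and length described below, the spheroid ratios were 0.70 and 0.67, within 2-fold, and the tumor ratios were 1.125 and 1.78, while those of the co-culture to the monoculture changed sign.

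Psme2 shares its reads with a near copy. The transcript of Psme2b, at chr11:48945354-48946190, was identical to that of Psme2 over 789 of 794 aligned bases (99.4%), and Psme2 held between 18.7% and 20.2% of the reads of the pair in the 4 libraries. How the counting split reads between them is not given in the sources used here. Summed over both, the pair had CPM values of 33.4 in the monoculture, 41.1 in the co-culture, 78.2 in the spheroid and 146 in the tumor. The log2 ratio of the sum was 1.23 (1.18 to 1.28) between spheroid and monoculture and 2.13 (2.09 to 2.18) between tumor and monoculture. The pattern of Psme2 was thus the same with the copy added.

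Of the interferon-induced subunits that the rule leaves out, Psmb8 and Psmb9 were under 1 CPM in every culture, whereas Psmb10 was not. Psmb8 measured 0.0140 CPM in the monoculture, 0.122 in the co-culture, 0.0514 in the spheroid and 50.2 in the tumor, of which the monoculture value is 2 reads, and Psmb9 had CPM values of 0.239 in the monoculture, 0.550 in the co-culture, 0.764 in the spheroid and 43.4 in the tumor. Psmb10 measured 27.9 CPM in the monoculture, 29.9 in the co-culture, 23.2 in the spheroid and 77.6 in the tumor. All 3 were highest in the tumor. The CPM of 9 interferon-induced marker genes summed to 383 in the monoculture, 410 in the co-culture, 508 in the spheroid and 2295 in the tumor. B2m alone gave 274, 351, 423 and 1727 of these sums in the same order, so their order is mostly that of B2m. All 9 were higher in the tumor than in the monoculture. In the spheroid 5 of 9 were higher and 4 lower, with a median log2 ratio of 0.33. In the co-culture 2 of 9 were higher and 7 lower, with a median of -0.99. The myeloid markers, 6 of 8 of them under 1 CPM in each culture, also stood highest in the tumor, and their part in these values was not tested.

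Psme3 and Psme4 encode nuclear activators. Psme3, PA28 gamma, had CPM values of 367 in the monoculture, 506 in the co-culture, 467 in the spheroid and 162 in the tumor, lowest in the tumor, with a tumor-to-monoculture log2 ratio of -1.18 (95% interval -1.20 to -1.16). With total counts or upper quartile factors this ratio was within 2-fold (-0.93 and -0.92). Psme4, PA200, measured 165 CPM in the monoculture, 35.7 in the co-culture, 30.4 in the spheroid and 96.3 in the tumor. The monoculture was highest and both cultures with fibroblasts were lowest, with log2 ratios to the monoculture of -2.44 (95% interval -2.49 to -2.39) in the spheroid and -2.21 (95% interval -2.26 to -2.16) in the co-culture. These were the lowest ratios among the members in both comparisons. Psme4 is also the longest member, with 6491 bases of transcript, and after the correction for GC content and length the ratios were -1.38 and -1.64.

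Psmf1, PI31, which inhibits the core in vitro, had CPM values of 71.5 in the monoculture, 57.0 in the co-culture, 68.2 in the spheroid and 23.8 in the tumor. The cultures lay close together and the tumor below them, with a tumor-to-monoculture log2 ratio of -1.59 (95% interval -1.64 to -1.54) and of spheroid to tumor of 1.52 (95% interval 1.47 to 1.58).

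Length moved with these differences. The core transcripts had a median of 1162.5 bases (766 to 2911), the regulatory transcripts 1636 bases (1316 to 3112) and all genes compared 3117.5 bases. GC content was similar, with medians of 48.9% and 49.7%. Across the 43 members, Spearman's correlation of the spheroid-to-monoculture log2 ratio with length was -0.54, and across 12664 genes it was -0.40. Genes of 1 library pair share its depth and RNA quality and are not independent replicates. Within the core particle the correlation was -0.086 (n = 14) and within the regulatory particle -0.31 (n = 17). With GC content it was 0.28 across the members and 0.49 across all genes.

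The particles were therefore also compared with length held closer. Among subunits of 1000 to 2000 bases, 7 core and 12 regulatory genes, the medians between spheroid and monoculture were 0.73 and -0.52, a choice made after the data were seen. When the median of all genes in the same class of GC content and length was subtracted, they were 0.29 and -0.63. The same correction gave 0.02 and -0.38 between co-culture and monoculture, -0.26 and -0.52 between tumor and monoculture, 0.28 and -0.29 between spheroid and co-culture, and 0.58 and -0.07 between spheroid and tumor. The regulatory median remained the lower one in all 5, while the core median of the tumor changed sign and that of the co-culture came close to 0. The correlation of GC content with the core ratios was 0.71 between spheroid and tumor and -0.71 between tumor and monoculture, over 14 genes each. After the correction Psmd3 (0.87), Psmd6 (-0.45) and Psme4 (-0.26) were within 2-fold between spheroid and tumor, and between tumor and monoculture so were Psmd3 (-0.99), Psmd8 (-0.94) and Psmd11 (-0.96). Psmd8 was so between spheroid and co-culture (0.89).

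**Figure D4:**
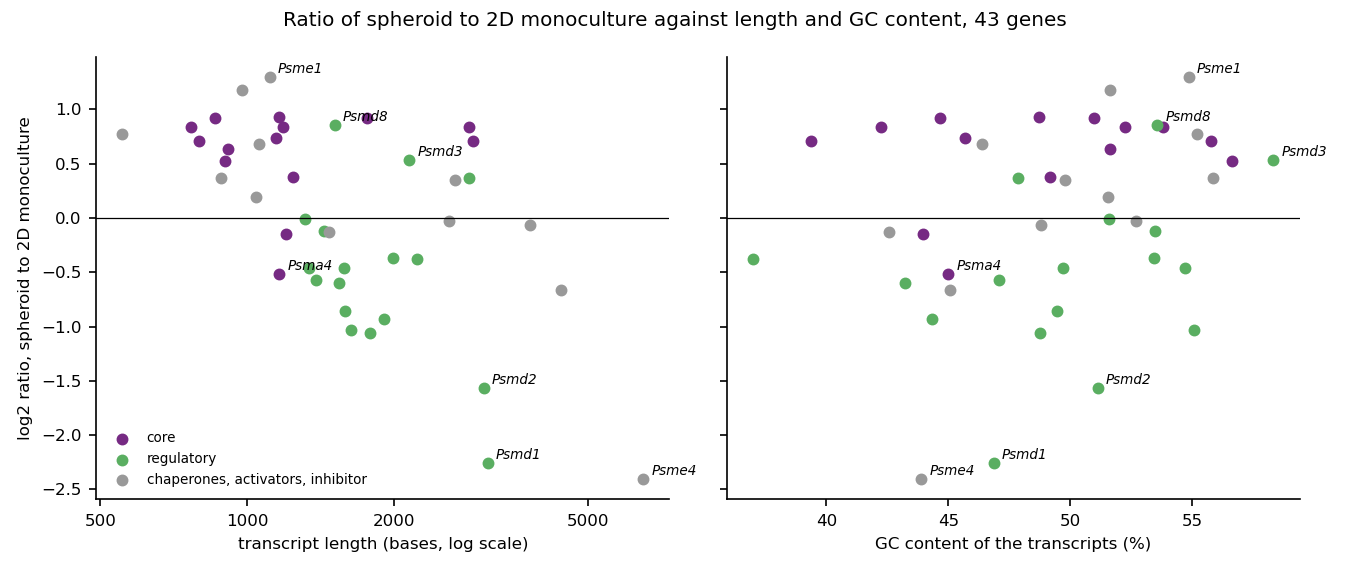
The spheroid-to-monoculture log2 ratio (1 CPM added) of the 43 genes is plotted against transcript length in bases on a log scale (left) and against GC content in percent (right), with core genes in purple, regulatory genes in green and the others in gray. Longer transcripts lie lower, with Psme4, Psmd1 and Psmd2 at the lower right of the left panel, and core genes lie above most regulatory genes of similar length.

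The wider pathway was read from lists of 34 genes that work with the proteasome, of which 33 were found and compared. Between spheroid and monoculture 3 were over 2-fold higher and 7 lower, between co-culture and monoculture 0 and 2, between tumor and monoculture 3 and 10, between spheroid and co-culture 4 and 1, and between spheroid and tumor 12 and 8. In the same order, 30.3%, 6.06%, 39.4%, 15.2% and 60.6% of the 33 were past 2-fold, against 29.1%, 13.3%, 33.1%, 18.0% and 54.4% of all genes. Nfe2l1, the activator of proteasome genes, measured 512 CPM in the monoculture, 441 in the co-culture, 1222 in the spheroid and 219 in the tumor. The spheroid was highest, with a log2 ratio to the monoculture of 1.25 (95% interval 1.24 to 1.27). Nfe2l2, its relative, had CPM values of 151 in the monoculture, 81.4 in the co-culture, 106 in the spheroid and 97.1 in the tumor. It was without that excess. Both belong to a list of 5 transcription genes, of which 4 were lower in the spheroid than in the monoculture (median log2 ratio -0.88). The others were Ddi2, Ngly1 and Bach1, with log2 ratios of -1.37, -0.96 and -1.37. After the correction 2 of the 5 were above 0 and the median was -0.004. Whether the level of Nfe2l1 goes with those of the proteasome genes was not tested. Akirin2, which imports proteasomes into the nucleus, measured 104 CPM in the monoculture, 122 in the co-culture, 245 in the spheroid and 51.9 in the tumor, and Pomp, which assembles the core, had CPM values of 158 in the monoculture, 217 in the co-culture, 176 in the spheroid and 213 in the tumor. The order of Akirin2 was that of Psmb4, and Pomp had no such order.

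Between spheroid and monoculture, both listed subunits of the regulatory particle that carry other symbols lay above its median. Adrm1, a ubiquitin receptor, measured 177 CPM in the monoculture, 210.3 in the co-culture, 278 in the spheroid and 50.2 in the tumor, and Sem1 (listed as Shfm1) had CPM values of 245 in the monoculture, 429 in the co-culture, 458 in the spheroid and 324 in the tumor. Both were higher in the spheroid than in the monoculture, but Adrm1 changed side after the correction (-0.10), and in the tumor Adrm1 was lower than in the monoculture (-1.82), as the regulatory median was. The following 3 proteins that bind the particle from outside were lower in the spheroid: Usp14, a deubiquitinase, measured 112 CPM in the monoculture, 85.7 in the co-culture, 51.4 in the spheroid and 81.5 in the tumor, Ube3c, a ubiquitin ligase, had CPM values of 106 in the monoculture, 76.5 in the co-culture, 36.1 in the spheroid and 86.1 in the tumor, and Ecpas (listed as AI314180), an adaptor, measured 145 CPM in the monoculture, 29.0 in the co-culture, 25.3 in the spheroid and 115 in the tumor. The transcripts of Usp14, Ube3c and Ecpas are long, with 4726, 5048 and 7045 bases, and all 3 genes remained lower in the spheroid than in the monoculture after the correction. Vcp, the unfoldase that hands substrates to the proteasome, had CPM values of 825 in the monoculture, 476 in the co-culture, 249 in the spheroid and 309 in the tumor, in the order of Psmd2. The shuttle factors Rad23b, Ubqln1, Ubqln2 and Ubqln4, which carry ubiquitinated proteins to the proteasome, were each over 2-fold higher in the spheroid than in the tumor. Ubqln1 was not so with total counts or upper quartile factors, nor Ubqln4 after the correction. Ubb, which encodes a chain of ubiquitin units, measured 2119 CPM in the monoculture, 2074 in the co-culture, 3464 in the spheroid and 1129 in the tumor, highest in the spheroid and lowest in the tumor.

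**Figure D5:**
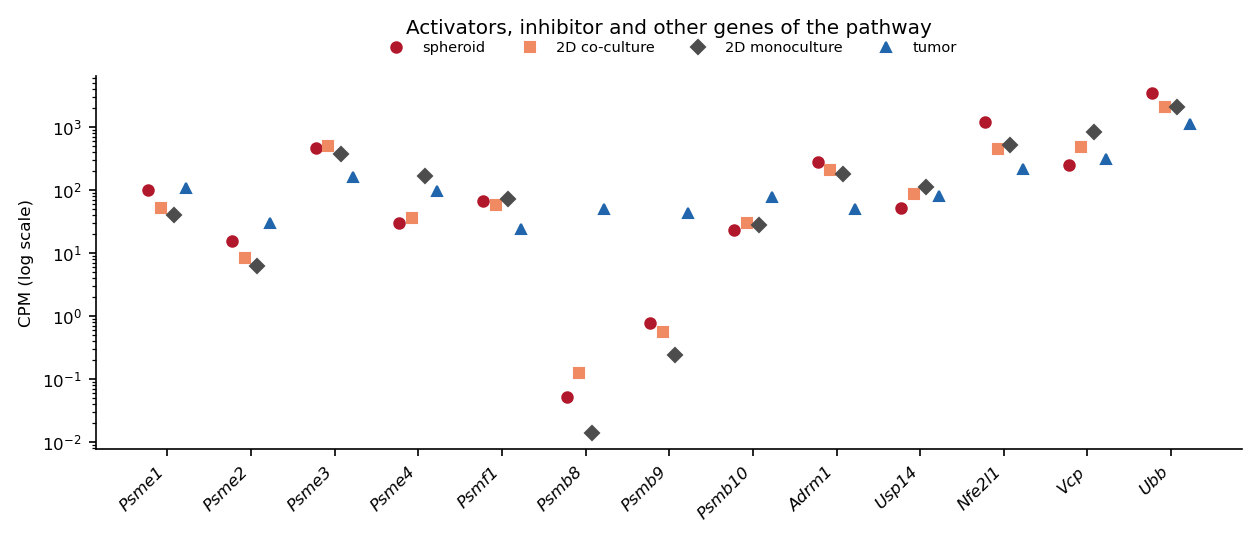
CPM on a log scale of the activators, the inhibitor, the immunoproteasome subunits and 5 other genes of the pathway, with 1 symbol per library. Psmb8 and Psmb9 lie under 1 CPM in the 3 cultures and at 50.2 and 43.4 CPM in the tumor, Psme4 is highest in the monoculture, and Nfe2l1 is highest in the spheroid.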

How the data were processed

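Poly(A) RNA of 4 libraries, 1 per condition, was sequenced in pairs of 150 bases. The authors deposited whole-number read counts per gene symbol, without normalization. The submitters' processing notes name Trimmomatic, STAR, featureCounts and mm10, without versions. Strand and multiple-mapping settings were not given in the sources used here. Counts were scaled with TMM factors of 0.908 (spheroid), 0.963 (2D co-culture), 0.984 (2D monoculture) and 1.16 (tumor) from edgeR 4.0.16 (R 4.3.3). Ratios with exact binomial intervals were computed with pandas 2.3.3, scipy 1.17.1 and numpy 2.4.6 under Python 3.11.15. Calls and intervals were tested on simulated counts that held counting error alone, so that test does not cover variation between replicates. Lists added 1 CPM and used genes that averaged 1 CPM or more.

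Transcript length and GC content came from exons of RefSeq-linked GENCODE transcripts (mm10), found for 99.5% of the genes compared and for all 45 members. The correction used 10 classes of GC content by 10 of length. Alternatives were DESeq2 1.42.0 size factors, total counts, upper quartile factors, other pseudocounts, filters and folds. All members were to be named, by role. The members, lists and motifs were chosen with earlier results of these data known. NOISeq and GFOLD, which the study used, were not run. Some genes of the pathway lists are not reported here by name.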

Additional observations from a re-analysis of the deposited data

How the results depend on the processing

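No paired analysis was possible because a condition holds a single library, and no library could be left out for the same reason. Of the summaries recomputed (counts past 2-fold, particle medians, their difference and the ratio of the sums), 240 stayed on the same side and within 1.5-fold, 12 moved further and 4 changed sign. For a median the limit applies to the shift of the log2 ratio. The core median between 2D co-culture and 2D monoculture went from 0.3631 to 0.0152 with the correction and counted as the same. Some alternatives could hardly move a value. The filters on mean CPM left the particle medians unchanged, and scaling nearly cancels in their difference. The 240 include all of these. With 1.5-fold in place of 2-fold, 24 members were past the limit between spheroid and 2D monoculture, 8 between 2D co-culture and 2D monoculture, 13 between tumor and 2D monoculture, 9 between spheroid and 2D co-culture and 25 between spheroid and tumor, by the wider limit itself. With the correction for GC content and length 4 were past 2-fold between tumor and 2D monoculture and 0 between spheroid and 2D co-culture, and the core median between tumor and 2D monoculture was -0.2625. From summed CPM the regulatory log2 ratio was 0.0544 between spheroid and 2D co-culture and 0.3611 between spheroid and tumor, where the mean was 0.0414. Psmd8 holds a large part of those sums. Without division by length the ratio of the sums was 1.8401 in the 2D monoculture, 1.1765 in the 2D co-culture, 1.1381 in the tumor and 0.9528 in the spheroid, and with medians in place of sums it was 0.3581 in the spheroid. The cause of the other changes was not tested.

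The 26 differences of single members past 2-fold kept their sign under each alternative in scaling, pseudocount and GC and length correction. Of them, 25 stayed past 2-fold with DESeq2 size factors, 23 with total counts, 21 with upper quartile factors and 17 with the correction. Counting error is small at this depth for all members but Psma8 and Psmb11. What limits the comparisons is that each condition has 1 library.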
